A study of Mus musculus with 4 samples.

Results

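The zinc finger protein genes of the mouse Zfp series were followed in RAW G9 cells with and without lipopolysaccharide (LPS). They were chosen as the genes whose array annotation symbol is Zfp followed by a digit, and the 4 genes of the Zfp36 family, whose RNA-binding fingers are of another kind, were left out. The array carried 565 probes for 345 such genes. The members described here were chosen by their detection p-values, which set a probe's brightness against that of negative controls on the same array: at least 1 probe of the gene had to be under 0.1 on both LPS arrays or on both untreated arrays. By this rule 191 of the 345 genes were detected, 146 in both conditions, 37 in untreated cells alone and 8 with LPS alone, and 154 were detected in neither. The detected share was 55.4%, against 46.1% over all 22491 genes with a named probe. Of the 10366 genes detected over the whole array, 1093 were detected in untreated cells alone and 496 with LPS alone. Because detection chose the genes, these counts are a description and were not tested.

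RAW G9 was cloned from a single cell of RAW264.7, a macrophage line from mouse, and carries a lentiviral construct with 2 reporters, GFP fused to RelA under the Rela promoter and mCherry under the Tnf promoter, and both groups carry it. The sample labels name the cells only as RAW264.7. The LPS group was 2 arrays, A and B, of cells given 10 ng/ml Salmonella minnesota R595 LPS for 4 h. The untreated group was 2 arrays, A and B, of cells given none, whose labels read 0 h in one field and 4 h in another. The methods describe each pair as biological duplicates.

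Most proteins of this series carry arrays of C2H2 fingers, small folds held by a zinc ion that read DNA bases in succession. The largest group in mammals joins the fingers to a KRAB domain, which recruits the corepressor Trim28 and, through it, the histone methyltransferase Setdb1 and heterochromatin proteins, and many KRAB proteins silence retroelements. Other members bind promoters as single factors, serve as subunits of corepressor complexes, or bind RNA, ribosomes or ubiquitin. The names are historical. Of the 191 detected members, 10 have since been renamed, among them Zfp313, now Rnf114, Zfp162, now the splicing factor Sf1, and Zfp294, now the ribosome quality control ligase Ltn1.

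Each LPS array lay on a slide of its own and both untreated arrays shared another, so slide and treatment cannot be told apart. The arrays detected between 16380 and 17892 probes. The 2 LPS arrays differed more from each other than the 2 untreated arrays did, with a median absolute log2 difference of 0.20 against 0.11 over the tested probes. Tnf, a main target of LPS, was higher with LPS by 4.46 ± 0.14 on the log2 scale (SE of the limma fit, adjusted p = 2.17e-06), and Il1b was detected with LPS alone. Of 10 macrophage markers, 9 were detected, all but Mertk, while 0 of 3 T-cell, 0 of 3 B-cell and 0 of 5 fibroblast markers with a probe were. Krt8 and Cdh1 of 5 epithelial markers and Elane of 4 neutrophil markers were detected, Cdh1 with LPS alone and so given without a test. Krt8 and Elane, detected in both conditions, did not pass the test between conditions.

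Among the 146 zinc finger genes detected in both conditions, 32 fell and 15 rose with LPS at an adjusted p under 0.05, and 99 did not pass (limma, Benjamini-Hochberg over 17211 probes). This was 21.9% lower and 10.3% higher, beside 21.8% lower and 14.3% higher among all genes detected in both conditions. These all genes are the 8749 of the whole array whose brightest tested probe was detected in both, where 8777 were by any probe. The share of falls was thus close to that of all genes. The median change, LPS minus untreated, was -0.17 on the log2 scale for the zinc finger genes and -0.080 for all genes. The lower and upper quartiles were -0.40 and 0.15 for the zinc finger genes and -0.41 and 0.24 for all genes. The whole range was narrower for the zinc finger genes, from -1.90 to 1.47, than for all genes, from -3.97 to 8.14. The change was below 0 in 95 of the 146 zinc finger genes (65.1%) and in 56.9% of all genes. In each of the 47 genes that passed, both LPS arrays lay beyond both untreated arrays. The arrays did not overlap in 65 genes with a lower value (44.5%) and 28 with a higher value (19.2%), those 47 included, against 42.0% and 28.7% of all genes. In bulk RNA, less transcript in each cell and fewer cells with the transcript cannot be told apart.

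**Figure D1:**
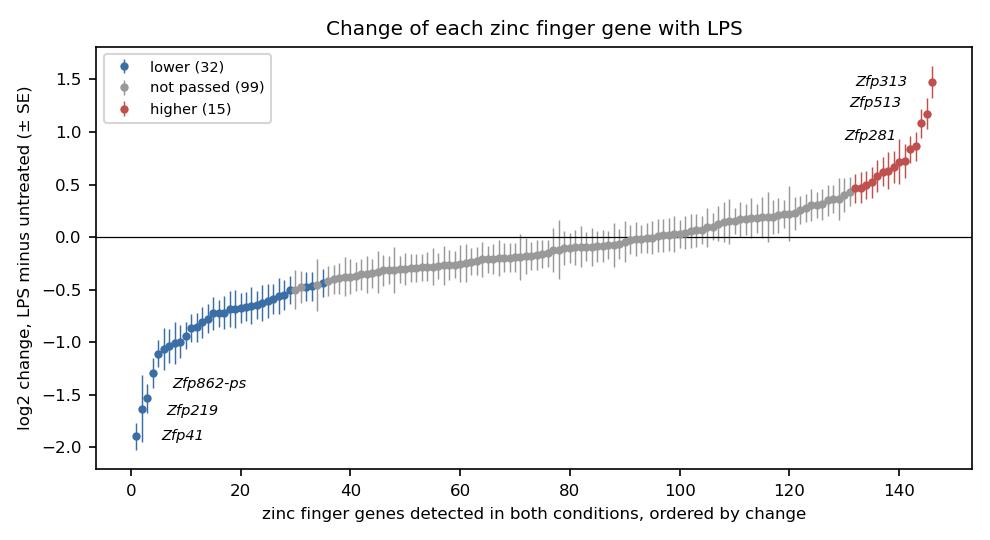
Log2 change, LPS minus untreated, of the 146 zinc finger genes detected in both conditions, ordered by change (vertical axis; bars, SE of the fit from 2 arrays a condition). The 32 genes that fell (blue) reach -1.90 in Zfp41, the 15 that rose (red) reach 1.47 in Zfp313, and 99 (grey) did not pass.

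The direction of the smaller changes depended on how the arrays were scaled. Scaling each array to the median of all probes, in place of quantile normalization, moved the median of all genes from -0.080 to -0.78 and that of the zinc finger genes to -0.86, and gave 104 falls and 1 rise. Scaling to the median of the tested probes moved these medians to 0.020 and -0.063 and gave 29 falls and 30 rises. Among all genes, 68.5% were lower and 4.6% higher under the first scaling, and 21.5% and 26.2% under the second. Without background correction there were 32 falls and 8 rises, and in the log2 table the authors deposited 29 falls and 8 rises. All genes were then 22.2% lower and 13.3% higher without background correction, and 21.8% and 13.0% in the deposited table. In all of these settings the median of the zinc finger genes lay below that of all genes, though at -0.055 against -0.043 without background correction and -0.052 against -0.041 in the deposited table the 2 were close. Leaving out LPS array A or B put the median change of the zinc finger genes at -0.11 or -0.22, beside -0.073 or -0.098 for all genes. Leaving out untreated array A or B put it at -0.17 or -0.14, beside -0.087 or -0.080. With an array left out, the other condition's pair alone gives the spread, drawn toward a value pooled over all tested probes. The lone array is assumed to vary like that pair. The number of calls then moved with the pair that was kept, among the zinc finger genes and among all genes.

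**Figure D2:**
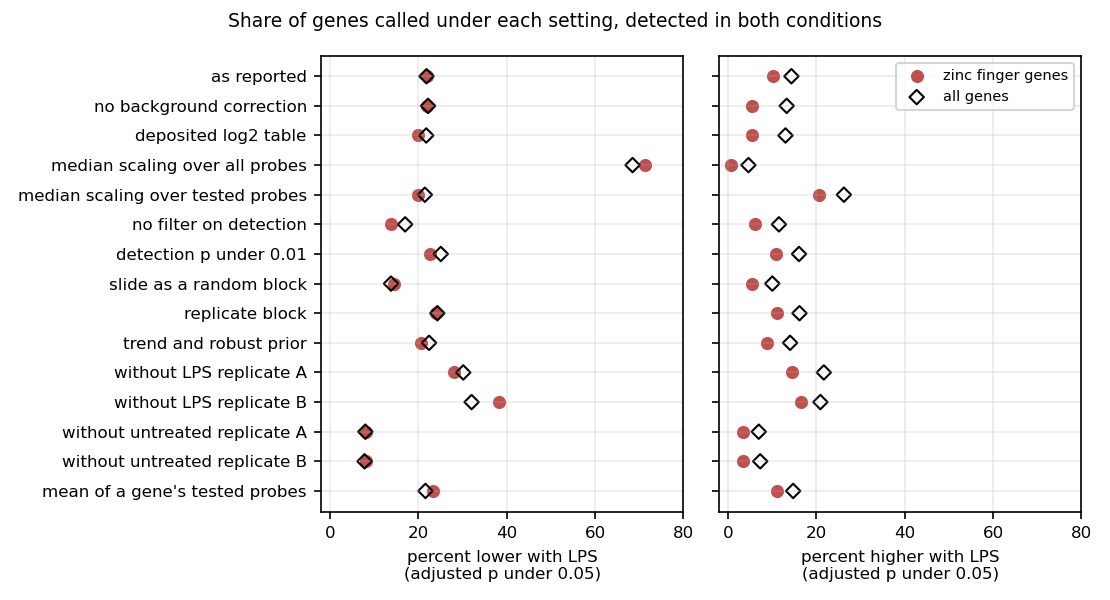
Percent of genes lower (left) and higher (right) with LPS at an adjusted p under 0.05 under each way of processing the arrays. Red points are zinc finger genes (146, and 110 at a detection p under 0.01). Open diamonds are all genes whose brightest tested probe was detected in both conditions (8749, and 8141). The share of rises was smaller for the zinc finger genes in every row, at 10.3% against 14.3% as reported, while the shares of falls were 21.9% and 21.8% as reported and differed most without LPS array B, at 38.4% against 32.0%.

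Zfp41 had the largest fall. Its log2 intensities were 7.76 and 7.71 in untreated arrays A and B and 5.83 and 5.84 with LPS, a change of -1.90 ± 0.13 (adjusted p = 6.03e-05). The arrays of each condition lay close together and far from those of the other condition, and a second probe of Zfp41 gave -2.05 ± 0.19 (adjusted p = 0.000297). Zfp219, a transcription factor and partner of Sox9 in mouse cartilage, read 8.47 and 8.44 untreated and 7.38 and 6.26 with LPS, a change of -1.63 ± 0.32 (adjusted p = 0.00833). Both LPS arrays were low, but they stood more than 1 log2 unit apart, while a second probe fell by 1.28 on the log2 scale with an SE of 0.18 (adjusted p = 0.00197). Zfp862-ps, a transcribed pseudogene, read 6.69 and 6.53 untreated and 5.05 and 5.10 with LPS (-1.54 ± 0.13, adjusted p = 0.000213).

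Zfp763 read 6.69 and 6.93 in the untreated arrays and 5.50 and 5.52 with LPS (-1.30 ± 0.14, adjusted p = 0.000601). Its second probe, not detected in both conditions and so given without a test, changed by -0.86 ± 0.14. Zfp512b, whose human counterpart binds the NuRD chromatin remodelling complex, read 8.59 and 8.54 untreated and 7.44 and 7.47 with LPS (-1.11 ± 0.13, adjusted p = 0.000759). In both genes the groups were separated by far more than the distance within them. Zfp932, a KRAB protein that silences endogenous retroviruses in mouse embryonic stem cells, read 7.61 and 7.73 untreated and 6.46 and 6.81 with LPS (-1.04 ± 0.16, adjusted p = 0.00294), but its second probe gave -0.13 ± 0.31 and did not pass. Zfp60 likewise rested on 1 probe, at 6.41 and 6.35 untreated and 5.02 and 5.60 with LPS (-1.07 ± 0.20, adjusted p = 0.00673), where the other, not detected in both conditions, gave 0.15 ± 0.13.

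The other 5 of the 12 largest falls lay between -1.01 and -0.86. Zfp472 read 7.18 and 7.36 untreated and 5.98 and 6.54 with LPS. Zfp87 read 7.27 and 7.25, then 6.08 and 6.45. In both, LPS array A was the lower of the pair. Zfp12 was at 7.65 and 7.77 untreated and 6.76 and 6.79 with LPS. Zfp282, whose human counterpart was found as a repressor that binds a retroviral long terminal repeat, was at 8.91 and 8.81 and then 8.03 and 7.96. Zfp707 was at 6.02 and 6.24 and then 5.27 and 5.26. In these last 3 the LPS arrays lay close together and well below the untreated arrays. The call of Zfp472 was lost without untreated array B (-0.92, adjusted p = 0.0581), as was that of Zfp707 (-0.75, adjusted p = 0.065). Those of Zfp219, Zfp60 and Zfp472 were lost when all probes were tested with no filter on detection (adjusted p = 0.0899, 0.0551 and 0.0638).

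Zfp313 had the largest rise. Under its current name, Rnf114, it is a ubiquitin ligase with a RING domain. Its log2 intensities were 7.87 and 7.74 in untreated arrays A and B and 9.13 and 9.42 with LPS, a change of 1.47 ± 0.15 (adjusted p = 0.000475). Zfp513, whose human counterpart is linked to retinal degeneration, read 7.04 and 7.01 untreated and 8.33 and 8.07 with LPS (1.18 ± 0.14, adjusted p = 0.00103). Zfp281, which binds GC-rich promoters and is known from mouse embryonic stem cells, read 6.51 and 6.38 untreated and 7.61 and 7.45 with LPS (1.08 ± 0.14, adjusted p = 0.00126). In all 3 the LPS arrays stood about 1 log2 unit or more above the untreated arrays, and a second probe of Zfp281 rose too (1.05 ± 0.19, adjusted p = 0.00639). Zfp428 read 5.60 and 5.56 untreated and 6.55 and 6.34 with LPS (0.86 ± 0.14, adjusted p = 0.00356), but its second probe gave 0.10 ± 0.16 and did not pass. Zfp653, described as a corepressor of nuclear receptors, read 6.957 and 6.999, then 7.83 and 7.80 (0.83 ± 0.13, adjusted p = 0.00286). Under median scaling over all probes the changes of Zfp513, Zfp281 and Zfp428 were 0.30, 0.24 and 0.15 and did not pass, and that of Zfp653 was -0.028.

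The remaining rises among the 12 largest were smaller and mostly of dimmer probes. Zfp382, Zfp667 and Zfp420, all KRAB proteins encoded on chromosome 7, changed by 0.72 ± 0.16, 0.62 ± 0.14 and 0.58 ± 0.15. Their untreated arrays lay between 4.90 and 5.34, and their LPS arrays between 5.58 and 5.91. Zfp445, the KRAB protein that guards imprinted regions with Zfp57, read 4.78 and 4.66 untreated and 5.76 and 5.11 with LPS (0.72 ± 0.22, adjusted p = 0.0403). Zfp335, a coactivator needed for neural progenitors and T cells in the mouse, read 5.63 and 5.81 and then 6.26 and 6.51 (0.67 ± 0.15, adjusted p = 0.0141). Zfp654 read 6.08 and 6.12, then 6.49 and 6.97, and Zfp91, a ubiquitin ligase that acts on the NF-κB inducing kinase, read 8.77 and 8.63, then 9.35 and 9.09 (0.52 ± 0.15, adjusted p = 0.0345). In each of these 7 the 2 groups did not overlap. With slide as a random block the calls of Zfp445, Zfp654, Zfp420 and Zfp91 were lost (adjusted p = 0.07, 0.0687, 0.0772 and 0.0973). All 7 calls were lost without untreated array A and without untreated array B. Without A the changes lay between 0.47 in Zfp420 and 0.83 in Zfp382, with adjusted p between 0.0579 and 0.265, and without B between 0.45 in Zfp91 and 0.76 in Zfp335, with adjusted p between 0.0725 and 0.283. Under median scaling over all probes Zfp335, Zfp654 and Zfp91 turned to -0.062, -0.16 and -0.32.

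**Figure D3:**
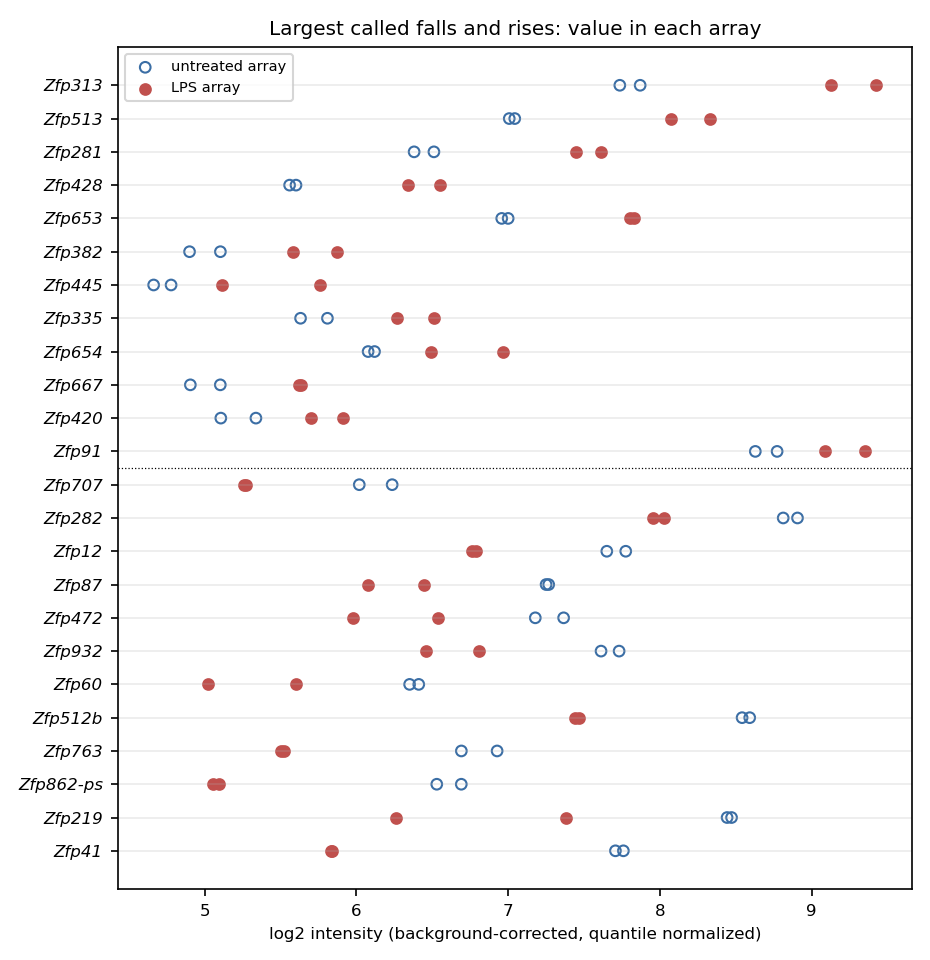
Background-corrected, quantile-normalized log2 intensity (horizontal axis) of the 12 largest rises (above the dotted line) and the 12 largest falls (below it), with 1 point for each of the 2 untreated (open blue) and 2 LPS (filled red) arrays. In every row both LPS arrays lie on one side of both untreated arrays; Zfp219 has the widest LPS pair, at 7.38 and 6.26.

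Of the 47 calls, 9 were kept under all 13 alternative treatments that test the same 146 genes, that is, without the stricter detection filter and the updated symbols. These were 8 falls and 1 rise. The falls were Zfp41, Zfp862-ps, Zfp763, Zfp512b, Zfp932, Zfp87, Zfp12 and Zfp282, and the rise was Zfp313. Without median scaling over all probes, which lowers all genes together and so fixes that falls are kept and rises lost, 8 falls and 5 rises kept their call under all the others, the rises being Zfp313, Zfp513, Zfp281, Zfp428 and Zfp653. With slide as a random block, 11 falls and 7 rises lost theirs. The direction was kept under all 13 in 31 falls, all but Zfp326, and in 8 rises, which that scaling bears on in the same way.

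Promoter windows of 4 of the genes with large changes are printed to show the sequence next to their start sites: Zfp313 and Zfp513, the largest rises, and Zfp219 and Zfp763 among the falls. Each runs from 250 bases before to 50 after a start of the gene in RefSeq on build GRCm38.p6, and is written 5′ to 3′ on the gene's strand, with matches to a motif in capitals. The windows are chr2:167503193-167503492 on the plus strand for Zfp313 (Rnf114), and, on the minus strand, chr5:31202254-31202553 for Zfp513, chr14:52020684-52020983 for Zfp219 and chr17:33033332-33033631 for Zfp763. Other starts are listed for some of these genes.
Zfp313: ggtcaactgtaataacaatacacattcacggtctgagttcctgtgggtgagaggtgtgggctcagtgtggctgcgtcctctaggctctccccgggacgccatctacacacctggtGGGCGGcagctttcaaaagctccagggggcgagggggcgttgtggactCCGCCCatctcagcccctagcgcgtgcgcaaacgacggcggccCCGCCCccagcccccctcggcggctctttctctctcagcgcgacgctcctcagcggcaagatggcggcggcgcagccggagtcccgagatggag
Zfp513: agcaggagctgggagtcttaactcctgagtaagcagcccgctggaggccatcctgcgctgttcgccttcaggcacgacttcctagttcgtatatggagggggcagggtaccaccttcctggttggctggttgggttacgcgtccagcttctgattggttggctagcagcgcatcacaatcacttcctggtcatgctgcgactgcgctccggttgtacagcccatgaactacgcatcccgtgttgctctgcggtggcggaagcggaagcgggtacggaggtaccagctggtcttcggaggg
Zfp219: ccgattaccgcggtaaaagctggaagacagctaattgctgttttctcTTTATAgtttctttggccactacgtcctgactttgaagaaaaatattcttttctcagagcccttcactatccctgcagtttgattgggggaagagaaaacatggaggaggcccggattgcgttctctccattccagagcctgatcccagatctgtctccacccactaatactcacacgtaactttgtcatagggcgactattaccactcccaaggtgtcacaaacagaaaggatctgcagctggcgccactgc
Zfp763: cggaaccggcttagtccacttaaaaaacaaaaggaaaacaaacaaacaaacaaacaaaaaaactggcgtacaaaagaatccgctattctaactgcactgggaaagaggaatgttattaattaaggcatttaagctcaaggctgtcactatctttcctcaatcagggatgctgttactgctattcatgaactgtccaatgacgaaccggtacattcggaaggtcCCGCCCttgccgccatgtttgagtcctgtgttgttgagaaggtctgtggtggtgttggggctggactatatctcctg
The Zfp313 window held 3 GC boxes and 26 CpG dinucleotides, the Zfp513 window 19 CpG and none of the motifs, the Zfp219 window 9 CpG and 1 TATA box, and the Zfp763 window 9 CpG and 1 GC box.

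The motifs searched, on both strands and each without regard to the others, so that matches may overlap, were the GC box (GGGCGG), the TATA box (TATAAA), the AP-1 site (TGANTCA), the core of the interferon response element (GAAANNGAA) and the NF-κB consensus. A window of this kind was held for 121 of the 146 genes. A GC box was in 53.7% of these windows and in 35.9% of the windows of all 27025 genes, and the median number of CpG was 17 against 7. A TATA box was in 5.79% against 14.2%. The 27025 genes were taken whether or not they were detected here, so the contrast was not made with other detected genes. The motifs tied to LPS signalling were about as frequent as in all genes: AP-1 in 6.61% against 7.93%, the interferon core in 8.26% against 8.57% and the NF-κB consensus in 5.79% against 4.35%. Among 13 genes that rose, 2 windows held an AP-1 site, 1 an interferon core and 1 the NF-κB consensus, and among 25 that fell 1, 1 and 2 did. These matches are a description of letters in 1 window a gene and say nothing of binding.

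Of the factors that bind promoters and enhancers, 6 of the 9 listed had a probe and all 6 were detected in both conditions, 2 lower, 2 higher and 2 not passed. That is 33.3% each way, beside 21.8% lower and 14.3% higher among all genes detected in both conditions, and the difference was not tested. Zfp64, a Notch coactivator in the mouse, fell from 8.49 and 8.53 to 7.77 and 7.80 (-0.73 ± 0.13, adjusted p = 0.00532). Zfp148, which binds GC-rich elements, fell from 5.85 and 5.69 to 5.07 and 5.14 (-0.66 ± 0.14, adjusted p = 0.00969). The rises were Zfp281 and Zfp335, described above, so the list was split evenly. Zfp263 read 8.19 and 8.45 untreated and 8.69 and 8.57 with LPS (0.31 ± 0.15, adjusted p = 0.149), and Zfp410, the activator of Chd4, changed by -0.19 ± 0.14 (adjusted p = 0.315). The calls of Zfp64 and Zfp148 were lost without untreated array A (-0.75 and -0.58) and without untreated array B (-0.70 and -0.74), and Zfp263 passed without LPS array B (0.37). The Zfp148 call was also lost in the deposited log2 table and under median scaling over the tested probes.

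Of 11 chromatin cofactors and corepressors detected in both conditions, Zfp219, Zfp512b and Zfp746 fell, Zfp609 rose and 7 did not pass. These were 27.3% lower and 9.1% higher, beside 21.8% and 14.3% of all genes detected in both conditions, a difference not tested. Zfp746, a repressor degraded through the ligase parkin, read 6.61 and 6.78 untreated and 6.24 and 5.93 with LPS (-0.61 ± 0.16, adjusted p = 0.0244), while its second probe gave -0.32 ± 0.15 and did not pass. Zfp609, which works with the cohesin loader Nipbl in mouse neural progenitors, read 5.13 and 5.02, then 5.63 and 5.45 (0.46 ± 0.14, adjusted p = 0.0402), and turned to -0.018 under median scaling over all probes. Both calls were lost without untreated array A (-0.69 and 0.52), without untreated array B (-0.52 and 0.41) and with slide as a random block (adjusted p = 0.0666 and 0.121). They were also lost in the deposited log2 table and with no filter on detection. The Zfp609 call was lost without background correction and with a trended robust prior as well. Just short of the threshold were Zfp644, a partner of the histone methyltransferases G9a and GLP, at -0.48 ± 0.16 (adjusted p = 0.053) and Zfp687 at 0.43 ± 0.14 (adjusted p = 0.0502). With the spread taken from the untreated pair alone, Zfp644 passed without LPS array B (-0.59), and Zfp687 without LPS array A (0.51) and without LPS array B (0.35). Zfp296, Zfp451, Zfp592, Zfp703 and Zfp516 changed by between -0.20 and 0.030 by their brightest probe, which did not pass in any of them. A second probe of Zfp296 fell (-0.56 ± 0.15, adjusted p = 0.0253). Again with the untreated pair alone giving the spread, the brightest probe of Zfp296 passed without LPS array A (-0.41) and that of Zfp592 without LPS array B (-0.38). Zfp217, of the CoREST and CtBP corepressor complexes, was detected in untreated cells alone, at 4.58 and 4.67, just over the detection limit.

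Of 11 members detected in both conditions from a list of proteins that act on RNA, ribosomes, ubiquitin or the spindle, a list that leaves out Zfp162 and Zfp294 (0.21 ± 0.16 and -0.30 ± 0.15, neither passed), Zfp313 and Zfp91 rose, Zfp326 fell and 8 did not pass. Of the 11, 9.1% were lower and 18.2% higher, against 21.8% and 14.3% of all genes detected in both conditions, a difference not tested. Zfp313 and Zfp91 are both ubiquitin ligases, but the ligases Zfp598, on the list, and Zfp294, off it, did not pass. Zfp326, of a complex that couples transcription to splicing, read 7.37 and 7.48 untreated and 7.03 and 6.95 with LPS (-0.44 ± 0.13, adjusted p = 0.0412), but its other probes gave 0.30 ± 0.25 and 0.41 ± 0.17 and did not pass. That call was also lost without untreated array A (-0.49), without untreated array B (-0.38) and with slide as a random block (adjusted p = 0.133). Zfp207, the spindle protein BuGZ, read 9.84 and 9.81 untreated and 10.14 and 10.12 with LPS, a small change with groups apart (0.31 ± 0.13, adjusted p = 0.108). Zfp346, which binds double-stranded RNA, changed by 0.36 ± 0.13 (adjusted p = 0.0797). With the untreated pair alone giving the spread, Zfp346 passed without LPS array A (0.36) and without LPS array B (0.35), at an almost equal change. Zfp385a, an RNA-binding protein, changed by -0.39 ± 0.15 (adjusted p = 0.0805) and passed without LPS array B (-0.46). Zfp598, the ligase of collided ribosomes, Zfp638, Zfp106 and Zfp622, a factor in maturation of the large ribosomal subunit, changed by 0.17 ± 0.15, 0.18 ± 0.14, 0.27 ± 0.13 and -0.044 ± 0.20. Zfp706 was detected in untreated cells alone, at 4.57 and 4.63.

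The 3 detected members known to silence imprinted regions or retroelements went separate ways. Zfp932 fell, Zfp445 rose, and Zfp809, which recognises the primer binding site of murine leukaemia virus, was at 5.93 and 5.83 untreated and 5.89 and 5.69 with LPS (-0.091 ± 0.14, adjusted p = 0.652). Of 18 genes listed as cofactors of KRAB proteins, 14 had a probe and 13 were detected in both conditions. Of these 13, 6 fell (46.2%), 1 rose (7.7%) and 6 did not pass, with a median change of -0.18. Among all genes detected in both conditions 21.8% were lower and 14.3% higher, with a median of -0.080, a difference not tested. Trim28, the corepressor that KRAB domains bind, read 11.42 and 11.28 untreated and 10.41 and 10.14 with LPS (-1.07 ± 0.15, adjusted p = 0.00191). Setdb1 read 7.49 and 7.53, then 7.03 and 6.97 (-0.51 ± 0.13, adjusted p = 0.0218). In both the LPS arrays were the lower ones. Uhrf1 and Dnmt1, which maintain DNA methylation, changed by -1.63 ± 0.13 and -1.13 ± 0.15, and both fell. Cbx3 and Smarcad1 were the other falls, and Atf7ip, the partner of Setdb1, rose by 0.66 ± 0.13 (adjusted p = 0.00831). Genes of related families, counted for comparison, were 3 lower and 2 higher of 16 Zbtb genes (18.8% and 12.5%), and 3 lower and 0 higher of 9 Zkscan and Zscan genes (33.3% and 0%). Their differences from all genes, at 21.8% and 14.3%, were not tested.

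The 5 members with the brightest probes were Zfp207, Zfp639, Zfp277, Zfp710 and Zfp330, and none passed by that probe. Zfp639 read 9.63 in both untreated arrays and 9.36 and 9.34 with LPS, a small change with close replicates (-0.28 ± 0.13, adjusted p = 0.138). Zfp277, which binds the ribosomal protein Rps2, read 9.61 and 9.82 untreated and 9.10 and 9.56 with LPS (-0.38 ± 0.18, adjusted p = 0.158), and passed without LPS array B (-0.61). A second Zfp277 probe, not detected in both conditions and so given without a test, changed by -0.82 ± 0.15. Zfp710 read 9.47 and 9.75, then 9.52 and 8.78 (-0.46 ± 0.24, adjusted p = 0.193), and passed without LPS array A (-0.83). In Zfp710 the groups overlapped through LPS array A, while a second probe fell (-1.09 ± 0.17, adjusted p = 0.00349). Zfp330, a nucleolar protein, changed by 0.059 ± 0.16 (adjusted p = 0.802).

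Several probes detected in both conditions were at hand for 33 members, of which 14 passed by the brightest. Another probe passed in 9 of these and none did in 5, Zfp932, Zfp428, Zfp746, Zfp326 and Zfp692. A less bright probe alone passed in 4 more genes, Zfp710, Zfp296, Zfp212 and Zfp317. There was no gene of the 33 in which probes passed in opposite directions. By the brightest probe, 21.8% of all genes detected in both conditions were lower and 14.3% higher. Genes with several probes were not counted over the whole array, so whether 14 or 9 of 33 is more than elsewhere was not tested. The files give no probe sequences to tell which transcripts each probe reads.

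**Figure D4:**
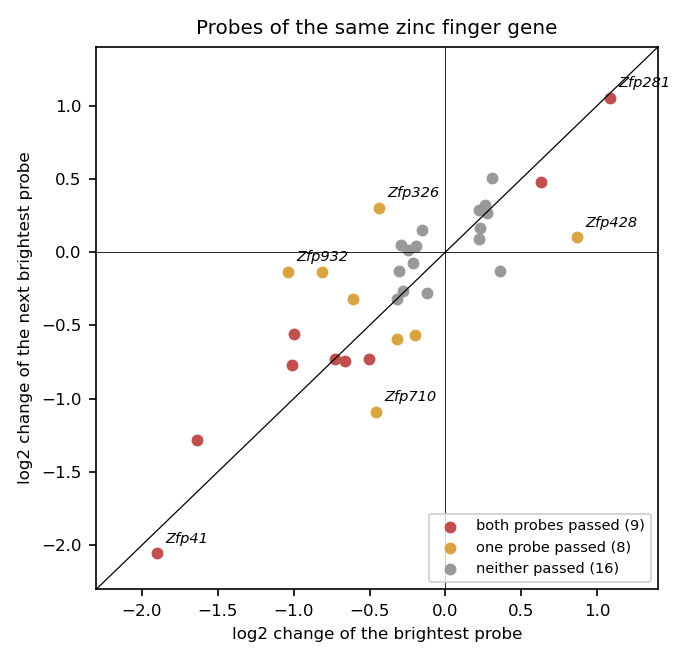
Log2 change, LPS minus untreated, of the brightest (horizontal) and the next brightest (vertical) probe of the 33 zinc finger genes with several probes detected in both conditions, with the line of equal change. Zfp41 and Zfp281 lie near the line, while Zfp932, Zfp428, Zfp326 and Zfp710 passed by 1 of the 2 probes only (0.86 against 0.10 in Zfp428).

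Zinc finger genes lie in clusters, and 145 of the 146 could be placed by RefSeq. They were spread over 20 chromosomes, and chromosome 7 held the most, 35, of which 8 fell (22.9%) and 4 rose (11.4%), against 21.8% and 14.3% of all genes. The order of genes gave 31 pairs no more than 3 protein-coding genes apart. Both genes fell in 5 pairs, both rose in 0, and 1 pair, Zfp667 and Zfp28, moved in opposite directions (0.62 and -0.59). Those that fell together were Zfp623 and Zfp707, Zfp472 and Zfp763, Zfp637 and Zfp239, Zfp579 and Zfp524, and Zfp764 and Zfp688. Neighbouring pairs were not counted among all genes, so whether 5 of 31 is more than elsewhere on the array was not tested. Related neighbours can share sequence, and whether a probe also reads its neighbour was not tested.

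The 45 genes detected in 1 condition had their direction fixed by the choice and are given without a test. For these, the fold is a lower bound, the bright condition's mean against, in each dim array, the higher of the lowest detected signal and the probe's own value. All 45 lay within 1 log2 unit of the highest detection limit, as did 45 of the 146 detected in both conditions. Zfp267 read 5.52 and 5.25 untreated and was at least 1.64-fold higher than with LPS, followed by Zfp82 (5.58 and 5.22, at least 1.61-fold), Zfp608 (5.17 and 5.31, at least 1.55-fold) and Zfp101 (5.09 and 5.36, at least 1.53-fold). No other of the 37 reached 1.5-fold, and in 22 of the 37 1 of the LPS arrays detected the gene, Zfp267 and Zfp82 among them. With LPS alone, Zfp42, the stem cell marker Rex1, read 4.99 and 4.83 and was at least 1.25-fold higher, followed by Zfp617 (at least 1.22-fold), Zfp821 (at least 1.19-fold) and Zfp366, a corepressor known from dendritic cells, at 4.62 and 4.98 (at least 1.17-fold). In Zfp42, Zfp617 and Zfp821 1 of the untreated arrays also detected the gene, and in Zfp821 the groups overlapped, with untreated array A at 4.94 and LPS array A at 4.78.

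The genes nearest the detection threshold were Zfp706 and Zfp217 in untreated cells and Zfp103 with LPS, inside it, with larger detection p-values of 0.0972, 0.0908 and 0.0908. Just outside lay Zfp469 and Zfp811, both at 0.1004, and Zfp473 at 0.104, all in untreated cells. Detection on either array of a condition in place of both gave 219 genes, a detection p under 0.05 gave 169 and one under 0.01 gave 141.

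Of the detected members, 3 are in the table of the study's secondary siRNA screen. Zfp428 rose by 1 of its 2 probes, as given above. Zfp825 read 5.45 and 5.49 untreated and 4.89 and 5.11 with LPS (-0.47 ± 0.14, adjusted p = 0.0389), a call kept under only 5 of the 13 alternatives. The call was lost without untreated array A (-0.49), without untreated array B (-0.45) and with slide as a random block (adjusted p = 0.113). Other losses came without background correction, in the deposited log2 table, with no filter on detection and with a trended robust prior. Under median scaling over the tested probes the change was -0.069 and did not pass. Zfp99, now Zkscan14, was detected in untreated cells alone, at 5.15 and 5.27, at least 1.44-fold higher than with LPS.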

How the data were processed

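RNA of 4 samples was hybridised to Illumina MouseWG-6 v2.0 bead arrays. The intensity of each probe that the authors deposited was extracted with GenomeStudio 2011.1 and holds no background subtraction, and the deposited detection p-value compares it with negative-control probes. The table of log2 values the authors deposited served as an alternative. The files pair no probe with a gene, so 35784 probes took 1 symbol from the platform annotation and 9497 took none. No column lay outside the 4 samples.

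Intensities were background-corrected with neqc of limma 3.58.1 (R 4.3.3; offset 16, controls inferred from detection p-values), then put through quantile normalization and a log2 transform. The 17211 probes with a detection p-value under 0.1 in both LPS or both untreated arrays entered lmFit and eBayes, with Benjamini-Hochberg adjustment and a threshold of 0.05; a gene was read by the brightest of its tested probes, on average. Only the fit and the adjustment were tested on simulated log2 values, drawn with no slide effect. Background correction, normalization, the detection filter and the choice of probe were not part of that test. The number of arrays, 2 a condition, limits the precision.

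The members, lists and tests were chosen with earlier results of these data known. Named were the 12 largest falls and rises that passed with arrays apart, the 4 largest bounds in each direction, the 5 brightest, detected members of the role lists, 3 genes of the secondary screen and up to 4 KRAB cofactors; Cbx3, Smarcad1, Atf7ip, the neighbour pairs, genes with discordant probes and genes near the detection threshold were added after their values were seen. Alternatives were 4 of background correction or scaling, 2 of the detection filter, slide as a random block, a replicate block, a trended robust prior, each array left out, the mean of a gene's probes and updated symbols. RefSeq symbols matched all 191 members, and promoter windows came from RefSeq on GRCm38.p6.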

Additional observations from a re-analysis of the deposited data

How the results depend on the processing

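With 32 falls and 15 rises among 146 genes as reported, no background correction gave 32 and 8, the deposited log2 values 29 and 8, median scaling over all probes 104 and 1, median scaling over the tested probes 29 and 30, no filter on detection 20 and 9, and slide as a random block (consensus correlation 0.548) 21 and 8. Among all genes, 68.5% were lower and 4.6% higher under median scaling over all probes, beside 71.2% and 0.7% of the zinc finger genes. Over the tested probes these were 21.5% and 26.2%, beside 19.9% and 20.5%. With no filter on detection they were 17.0% and 11.5%, beside 13.7% and 6.2%. With slide as a random block they were 13.8% and 10.0%, beside 14.4% and 5.5%. Leaving out 1 array gave between 12 and 56 falls and between 5 and 24 rises, and between 195 and 203 detected genes against 191. The counts stayed within 1.5 times under a detection p under 0.01 (25 and 12 of 110), a trended robust prior (30 and 13), the mean of a gene's probes (34 and 16) and updated symbols (31 and 13 of 145). For updated symbols no share of all genes was counted. Among all genes, 25.1% were lower and 16.1% higher at a detection p under 0.01, beside 22.7% and 10.9% of the zinc finger genes. With a trended robust prior they were 22.4% and 14.0%, beside 20.5% and 8.9%. With the mean of a gene's probes the shares of all genes stayed close to the reported 21.8% and 14.3%, beside 23.3% and 11.0%. Except for these constructions, the cause of the differences was not tested. The replicate letters were only a shared label, with a correlation of same-letter deviations of 0.15 over 2 pairs; a replicate block gave 35 falls and 16 rises.

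Median scaling over all probes, which lowers all genes together, turned the change of Zfp653 to -0.028, Zfp335 to -0.062, Zfp654 to -0.16, Zfp91 to -0.32, Zfp609 to -0.018, Zfp207 to -0.45, Zfp330 to -0.75, Zfp106 to -0.45, Zfp263 to -0.58, Zfp346 to -0.47, Zfp516 to -0.14, Zfp598 to -0.51, Zfp638 to -0.68 and Zfp703 to -0.68. Over the tested probes, Zfp622 turned to 0.54 and Zfp809 to 0.046, and the mean of its probes turned Zfp326 to 0.092. Among genes that had not passed, leaving out 1 array gave a range that spans 0 in Zfp330 (-0.12 to 0.23), Zfp296 (-0.41 to 0.011), Zfp809 (-0.19 to 0.0092), Zfp592 (-0.38 to 0.23), Zfp703 (-0.17 to 0.19), Zfp516 (-0.035 to 0.095), Zfp451 (-0.20 to 0.030) and Zfp622 (-0.33 to 0.24).

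With 2 arrays a condition and each condition on slides of its own, an adjusted p does not measure differences between slides. It rests on the spread within these pairs, drawn by eBayes toward a value pooled over all tested probes. Probes near the detection limit, 45 of the 146, understate a change.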
